A study of Mus musculus with 313 samples.

Results

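Irf8, Bcl11a, Rag2, Batf and Pira11 are 5 of the 100 assays of a quantitative RT-PCR panel run on single precursor cells of the mouse fetal liver. They were chosen by name, as genes known from B cells, myeloid cells and dendritic cells, and with earlier results of these data known. All 5 were measured. The cells came from livers of embryonic day 15, which had been pooled, and were sorted as lineage-negative cells carrying IL7Rα, the receptor chain for interleukin 7, and the integrin α4β7. ILCP cells are the common precursors of innate lymphoid cells (ILCs) and were positive for PLZF, the product of Zbtb16. LTiP cells are precursors of lymphoid tissue inducer (LTi) cells and were PLZF-negative and CXCR5-positive. aLP cells, the α4β7+ lymphoid precursors, had neither PLZF nor CXCR5. All 3 groups share every other gate. Pools hold many embryos, and neither strain nor genotype is named in the labels.

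The study states 339 compiled cells and 299 after its filter on housekeeping genes. The table analysed here held 313 cells, of which 312 were used: 62 ILCP cells of sort 2, 90 ILCP cells of sort 3, 14 LTiP cells of sort 3, 54 aLP cells of sort 2 and 92 aLP cells of sort 3. The sort is the number 2 or 3 in each cell's name, taken to stand for the study's independent sorts, although no label defines it. Cells of 1 group and 1 sort formed a pool, and pools, not cells, were the replicates, 2 for ILCP, 1 for LTiP and 2 for aLP. Whether the pools came from separate litters is not given, so p-values measure the spread between these pools. Detection in a cell meant that the Ct, the cycle number at which the PCR signal passes a set threshold, lay below 24. The level in a cell is 24 minus the Ct, in cycles, and 1 cycle more stands for about 2 times as much cDNA. The median number of the other 95 assays detected per cell was 40 in both ILCP pools, 33.5 in the LTiP pool, 34 in the aLP pool of sort 2 and 26 in that of sort 3.

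Early lymphoid precursors can carry transcripts of several blood lineages at low level before they commit to 1 of them, which is known as lineage priming. IRF8 is a transcription factor needed for monocytes and dendritic cells and active in B cells. BCL11A is a zinc finger factor that B cells and plasmacytoid dendritic cells need. BATF is an AP-1 factor that pairs with IRF4 or IRF8 on DNA in lymphocytes and dendritic cells. RAG2 is a subunit of the recombinase that assembles the antigen receptor genes of B and T cells. Pira11 is kept as the assay is named: it was the only 1 of the 5 without a match in the gene table used here. Its symbol is of the Pira family of paired immunoglobulin-like receptors, whose members are alike in sequence, so which of them the assay reads is uncertain.

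The label of the set was checked against other genes of these lineages. Ebf1 and Pax5, the factors that define the B lineage, were each detected in 1 of 312 cells, in different aLP cells of sort 3. Of 22 B lineage genes listed for comparison 7 were on the panel, and of 22 myeloid and dendritic genes only Irf8, Batf and Pira11 were. The panel thus held no further gene of this myeloid and dendritic list by which such cells could be recognised. The names of the lineages are used here only for where the 5 genes are best known.

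Sequence at the start sites is shown for Irf8, the gene that passed the test, and for Rag2, the gene whose sorts went opposite ways. Both are RefSeq windows of assembly GRCm38.p6 on the plus strand, from 250 bases before to 50 after the start. Irf8 lies at chr8:120736108-120736407 (first of its 2 listed starts) and Rag2 at chr2:101624462-101624761. Capitals mark matches to TATAAA in Irf8 and to CAGNTG, an E-box read by E proteins, in Rag2.
Irf8: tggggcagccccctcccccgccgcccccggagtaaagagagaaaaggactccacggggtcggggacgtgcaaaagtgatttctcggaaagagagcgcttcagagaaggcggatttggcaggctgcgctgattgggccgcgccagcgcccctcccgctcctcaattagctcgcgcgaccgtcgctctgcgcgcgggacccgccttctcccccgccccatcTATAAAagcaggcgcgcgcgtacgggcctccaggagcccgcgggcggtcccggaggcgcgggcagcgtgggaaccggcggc
Rag2: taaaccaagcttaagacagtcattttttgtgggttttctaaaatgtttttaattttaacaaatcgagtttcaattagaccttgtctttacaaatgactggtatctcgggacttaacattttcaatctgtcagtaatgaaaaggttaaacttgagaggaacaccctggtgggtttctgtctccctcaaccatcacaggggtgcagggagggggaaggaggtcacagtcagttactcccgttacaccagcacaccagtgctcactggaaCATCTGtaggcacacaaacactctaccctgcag
The Irf8 window had 70% G and C and 38 CpG dinucleotides, and the Rag2 window 43% and 3, against medians of 52.7% and 7 over 32851 windows of this length. Bcl11a, at 63%, was also rich in G and C, while Batf had 49.7%. On either strand TATAAA was found in 13.6% of all windows and CAGNTG in 51.4%. Neither TGANTCA (AP-1; 7.81% of windows), GAAA repeated after a gap of 2 bases (an IRF-type repeat; 3.4%) nor AGGAAG (ETS; 35.4%) occurred in the windows of Irf8, Bcl11a, Rag2 or Batf, the second start of Irf8 included. No searched motifs overlapped in the 2 windows shown. No binding or chromatin was measured, so these letters are a description only.

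ILCP was set against aLP to see which of the genes are still detected in precursors that carry PLZF. Irf8 fell in ILCP, in both sorts, and was the only 1 of the 5 to pass the test. It was detected in 25 of 62 ILCP cells of sort 2 (40.3%, exact 95% interval 28.1 to 53.6) and 30 of 90 of sort 3 (33.3%, 23.7 to 44.1). In aLP it was detected in 40 of 54 cells of sort 2 (74.1%, 60.3 to 85) and 73 of 92 of sort 3 (79.3%, 69.6 to 87.1). The intervals, which cover counting error only, of the ILCP pools lay below those of the aLP pools. Averaged over all cells of a pool, with 0 where not detected, the Irf8 level was 2.21 and 1.77 cycles in the ILCP pools, against 4.66 and 5.08 in the aLP pools. The means were 1.99 ± 0.31 for ILCP and 4.87 ± 0.30 cycles for aLP, with SD over 2 pools in either group. They differed by -2.88 ± 0.31 (moderated SE), with -2.45 in sort 2 and -3.31 in sort 3. In limma over 91 assays the Benjamini-Hochberg adjusted p for Irf8 was 0.0138, its place by p being 6 of 91. Among the 91 assays 1.10% were called lower in ILCP (Irf8 alone), 5.49% higher and 6.59% in either direction, and 2.20% were lower at an unadjusted p under 0.05. The adjusted p was 0.0611 in a fit blocked on sort, and it was 0.112 with the first ILCP pool (sort 2) left out and 0.120 with the other, the spread then coming from the aLP pools alone.

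The level was also read in the cells that had Irf8. Among detecting cells the median level was 5.50 and 4.86 cycles for ILCP, against 6.10 and 6.51 cycles for aLP, sort 2 before sort 3. The ranges overlapped almost fully, from 0.997 to 9.06 in ILCP and 0.673 to 10.1 in aLP. A limma fit on detecting cells gave a difference of -0.957 ± 0.38 cycles with an adjusted p of 0.246 over 60 assays, which did not pass. The mean level over all cells combines the share of detecting cells and the level within them. Fitted on shares, Irf8 differed by -39.9 ± 4.02 percentage points (adjusted p = 0.0263, limma over 91 assays).

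**Figure D1:**
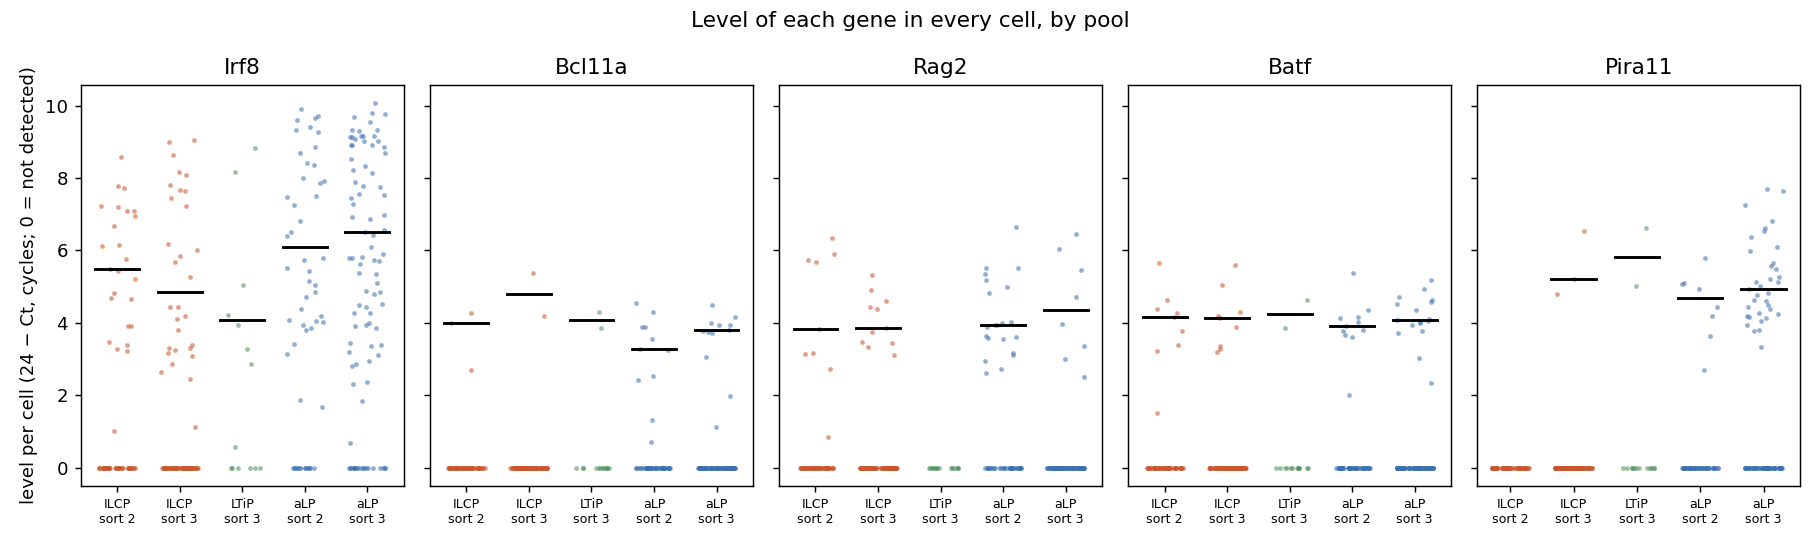
Level of each of the 5 genes in every cell (24 minus Ct, in cycles, with 0 for cells in which the gene was not detected), by pool, with black lines for the median of detecting cells. Irf8 spans up to 10.1 cycles and has the most detecting cells, while the other 4 genes lie mostly at 0 and their detecting cells within 0.696 and 7.70 cycles.

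The other 4 genes were each detected in a minority of cells in every pool, and none of them passed the test. Bcl11a was detected in 3 of 62 and 2 of 90 ILCP cells (4.84% and 2.22%), against 11 of 54 and 12 of 92 aLP cells (20.4% and 13%). Its mean level differed by -0.40 ± 0.23 cycles (limma, adjusted p = 0.330), and both ILCP shares lay below both aLP shares. Among detecting cells its median was not lower in ILCP: 3.99 and 4.78 cycles from 3 and 2 cells, against 3.27 and 3.79 in aLP.

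Batf had the smallest difference in share of the 5, at -7.17 points. It was detected in 9 of 62 (14.5%) and 9 of 90 (10%) cells of ILCP, while aLP had 11 of 54 (20.4%) and 17 of 92 (18.5%). The difference in mean level was -0.29 ± 0.23 cycles (limma, adjusted p = 0.447). Its median level in detecting cells was 4.15 and 4.12 cycles in ILCP and 3.9 and 4.09 in aLP, a spread of under 1 cycle over all 4 pools.

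Rag2 differed more between the 2 aLP sorts than between the group means, while the ILCP sorts lay 2.29 points apart in share. It was detected in 9 of 62 (14.5%) and 11 of 90 (12.2%) ILCP cells, against 21 of 54 (38.9%) aLP cells of sort 2 and 8 of 92 (8.70%) of sort 3. The ILCP minus aLP difference in share was therefore -24.4 points in sort 2 and 3.53 points in sort 3, and the ILCP values lay between the 2 aLP values. The mean level differed by -0.45 ± 0.49 cycles (limma, adjusted p = 0.545), and by 0.16 without the aLP pool of sort 2. Between the aLP sorts only 5 of the 91 assays had a larger gap in share than the 30.2 points of Rag2. aLP cells of sort 2 also gave more detected assays than those of sort 3, with the medians given above. Rag2 was found in aLP cells with 35 or more of the other assays in 13 of 26 cells of sort 2 and 3 of 6 of sort 3. With 25 to 34 it was found in 5 of 16 and 5 of 49, and with fewer than 25 in 3 of 12 and 0 of 37. The sort gap was thus present in the 2 lower classes and absent from the highest, which held 6 cells of sort 3.

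Pira11 had the fewest ILCP cells of the 5 over both sorts, with 3 of 90 cells (3.33%) in sort 3 and 0 of 62 in sort 2, a count that allows up to 4.84%. In aLP it was detected in 8 of 54 cells of sort 2 (14.8%) and 35 of 92 of sort 3 (38%). The sorts thus went the opposite way from Rag2, with the higher aLP share in sort 3. The mean level differed by -1.22 ± 0.52 cycles (limma, adjusted p = 0.208). It was -1.87 without the aLP pool of sort 2 (adjusted p = 0.0417) and -0.57 without that of sort 3 (adjusted p = 0.565), fits in which the spread comes from the ILCP pools alone. In detecting cells the median was 5.21 cycles in the 3 ILCP cells and 4.67 and 4.94 in the aLP pools. By classes of other assays, the aLP shares of the 2 sorts lay furthest apart in the lowest class. In aLP of sort 3 Pira11 was found in 18 of 37 cells with fewer than 25 other assays, 16 of 49 with 25 to 34 and 1 of 6 with 35 or more. In aLP of sort 2 it was found in 0 of 12, 4 of 16 and 4 of 26.

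Set side by side, 4 of the 5 genes (all but Rag2) had both ILCP shares below both aLP shares. Of the 91 assays tested 11% did so, these 4 among them, and 51.6% had both ILCP shares above both aLP shares. The 5 genes were chosen with earlier results known, so their comparison with the panel is a description. The median difference in share over the 5 genes was -13.2 points, and over all 91 assays 8.69 points. In mean level the medians were -0.45 cycles for the 5 genes and 0.54 cycles for all 91 assays. By difference in share 1 assay of the panel lay below Irf8 and 3 below Pira11.

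**Figure D2:**
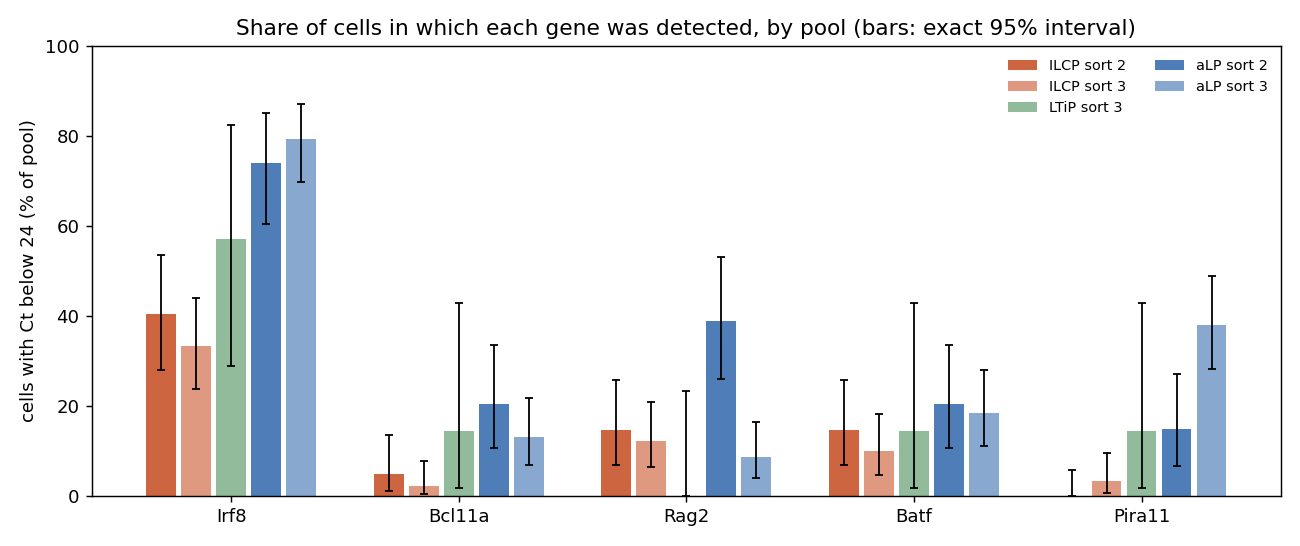
Share of cells with a Ct below 24, in percent of the cells of a pool, for each gene and pool, with exact 95% intervals for counting error. Irf8 stands at 40.3% and 33.3% in ILCP against 74.1% and 79.3% in aLP, Rag2 is high only in aLP of sort 2, and Pira11 is highest in aLP of sort 3.

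The number that ends each cell's name allowed the shares to be read within ranges of 96 in sort 3, where each range held both groups. Irf8 was detected in 36.8%, 28.1% and 35.9% of the ILCP cells of the 3 ranges, low numbers first, and in 79.2%, 77.1% and 81.8% of the aLP cells. Pira11 was detected in 5.26%, 0 of 32 and 5.13% of the ILCP cells and in 41.7%, 40% and 33.3% of the aLP cells. For both genes every range of ILCP lay below every range of aLP. In sort 2 the aLP cells all had numbers of 97 or higher, as had 10 ILCP cells, of which 4 had Irf8 and 0 had Pira11.

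ILCP cells gave more detected assays than aLP cells, while Irf8 went the other way. Among cells with 35 or more of the other assays, Irf8 was detected in 21 of 54 (38.9%) and 22 of 78 (28.2%) ILCP cells, against 15 of 26 (57.7%) and 3 of 6 (50.0%) aLP cells. Among cells with 25 to 34 it was detected in 3 of 7 and 8 of 12 ILCP cells, against 16 of 16 and 42 of 49 aLP cells. ILCP was lower within each of these classes and sorts. Limited to cells with 25 to 44 other assays, the difference in mean level was -3.20 ± 0.22 cycles (limma, adjusted p = 0.00938 over 89 assays).

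The LTiP pool, from CXCR5-positive cells, was set against the aLP pool of its own sort, with no test because LTiP had 1 pool. Irf8 was present in 8 of the 14 LTiP cells (57.1%, 28.9 to 82.3), beside 79.3% of aLP cells and 33.3% of ILCP cells of sort 3. Its interval overlapped those of both neighbours in this order. Bcl11a, Batf and Pira11 were found in 2 of 14 LTiP cells each (14.3%, 1.78 to 42.8), an interval that holds the ILCP and aLP shares of sort 3 for all 3 genes. Rag2 was detected in 0 of 14, which allows a share of up to 21.4% and so does not separate LTiP from the 8.70% of aLP or the 12.2% of ILCP cells. Every LTiP cell with any of the 5 genes had Irf8.

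The next question was whether single aLP cells carry several of these genes at once. The mean number of the 5 genes detected per cell was 0.742 and 0.611 for ILCP (sort 2, then 3), 1.0 for LTiP, and 1.69 and 1.58 for aLP. At least 2 of them were detected in 11 of 62 (17.7%) and 10 of 90 (11.1%) ILCP cells, 5 of 14 LTiP cells, and 26 of 54 (48.1%) and 46 of 92 (50.0%) aLP cells. None of the 5 was detected in 29 and 48 ILCP cells, 6 LTiP cells, and 6 and 8 aLP cells. No cell had all 5, and 4 were found in 1 ILCP cell of sort 2 and in 1 aLP cell of each sort. At least 1 gene besides Irf8 was detected in 18 of 62 and 22 of 90 ILCP cells, 5 of 14 LTiP cells, and 32 of 54 and 52 of 92 aLP cells. Such counts rise with the share of each gene, so they do not by themselves show that the genes go together.

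**Figure D3:**
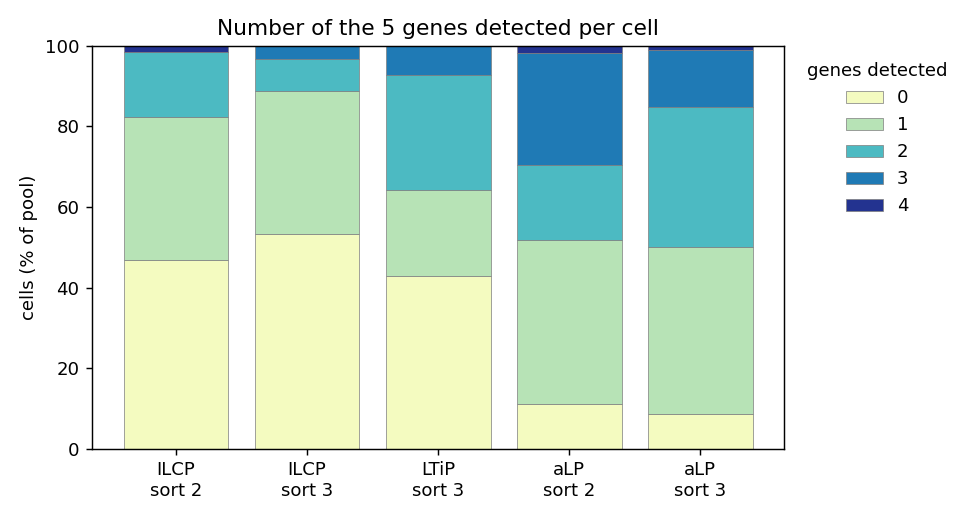
Stacked shares of cells, in percent of each pool, by how many of the 5 genes were detected. Of the ILCP cells 46.8% and 53.3% had none, against 11.1% and 8.70% of the aLP cells.

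For pairs, the cells with both genes were counted beside the number that the product of the 2 shares gives in the same pool. Irf8, being so frequent, met each of the others about as often as that product. Over both aLP pools Irf8 was found with Bcl11a in 17 cells (product 17.7), with Rag2 in 22 (21.9), with Batf in 23 (21.6) and with Pira11 in 35 (33.7). Forming the product within 3 classes of other assays detected moved these 4 products to between 18.2 and 34.1. Cells with Irf8 alone were the most frequent class in both aLP pools, with 16 of 54 and 32 of 92 cells.

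Pairs without Irf8 rested on few cells. Rag2 and Pira11 met in 2 aLP cells, 1 in each sort, against products of 3.1 in sort 2 and 3.04 in sort 3. The ratio to the product over both sorts was 0.325, the lowest of the 10 pairs, and within classes of other assays the product was 5.38 over both sorts. Bcl11a and Pira11 met in 10 cells (product 6.19), with 2 in sort 2 and 8 in sort 3. Rag2 and Batf met in 8 aLP cells of sort 2 (product 4.28) and in 1 of sort 3 (product 1.48). Bcl11a and Rag2 met in 7 cells of sort 2 (product 4.28) and in 0 of sort 3 (product 1.04). In sort 2 both of the last pairs thus lay above the product. In sort 3 they lay below it, but these products were too small for a count to fall far below them. Of the 21 Rag2 cells of sort 2, 7 carried Irf8 and Batf alone beside it, 5 carried Irf8 and Bcl11a alone beside it, and 1 carried all 3.

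**Figure D4:**
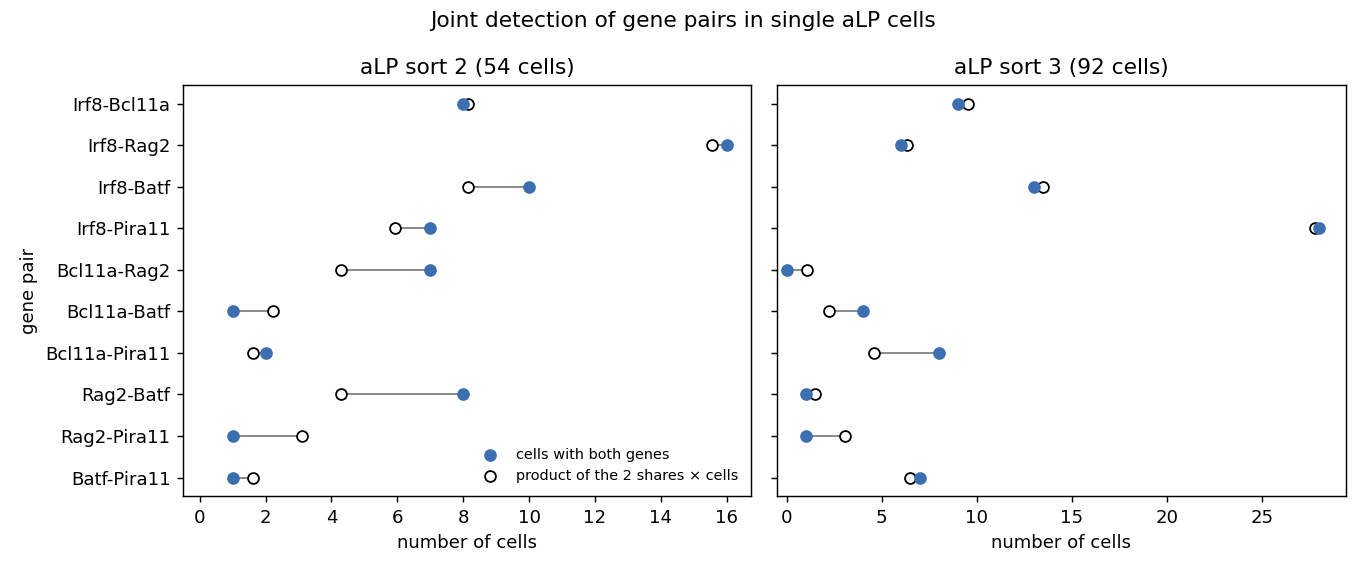
Number of aLP cells in which both genes of a pair were detected (filled) and the number given by the product of their shares (open), for the 10 pairs and both sorts. The 4 pairs with Irf8 lie near their products, and Rag2-Pira11 lies below its product in both sorts, at 1 cell each.

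ILC factors were then read in the ILCP cells that had each gene. Zbtb16, whose protein set the ILCP gate, was detected in 58 of 62 and 87 of 90 ILCP cells. All ILCP cells with Bcl11a (5), Rag2 (20), Batf (18) or Pira11 (3) had it. Tcf7, an early factor of T cells and ILCs, was found in 9 of 9 and 11 of 11 Rag2 cells of the ILCP pools, and in 55 of 62 and 87 of 90 ILCP cells at large. Among ILCP cells with Irf8, 22 of 25 and 27 of 30 had Zbtb16. Of the 7 ILCP cells in which Zbtb16 was not detected, 6 had Irf8. Ets1, a factor of lymphocyte development, was detected in 4 of 9 and 7 of 11 ILCP cells with Rag2, against 44 of 53 and 61 of 79 without. The aLP pools went the other way, with Ets1 in 8 of 21 and 8 of 8 cells with Rag2, against 8 of 33 and 20 of 84 without. In ILCP cells with Batf it was detected in 7 of 9 and 8 of 9, against 41 of 53 and 60 of 81 without.

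Irf8 and Rora, a nuclear receptor gene needed for group 2 ILCs, were found together within ILCP in fewer cells than the product of their shares. Rora was detected in 13 of 25 (52%) and 15 of 30 (50%) ILCP cells with Irf8, against 33 of 37 (89.2%) and 56 of 60 (93.3%) ILCP cells without it. Both were found in 13 and 15 cells, where the product of shares gives 18.5 and 23.7. Read from the other side, Irf8 was detected in 13 of 46 and 15 of 71 ILCP cells with Rora (28.3% and 21.1%). In ILCP cells without Rora it was detected in 12 of 16 and 15 of 19 (75% and 78.9%), beside 74.1% and 79.3% in the aLP pools as a whole. In aLP only 8 cells had Rora, of which 3 had Irf8. Rag2 lay on the same side: Rora was detected in 3 of 9 and 6 of 11 ILCP cells with Rag2, against 43 of 53 and 65 of 79 without, and both met in 3 and 6 cells where the products give 6.68 and 8.68. For Bcl11a the counts were 1 of 3 and 0 of 2 ILCP cells with it, against 45 of 59 and 71 of 88 without. Batf differed little, with Rora in 7 of 9 and 7 of 9 ILCP cells with it, against 39 of 53 and 64 of 81 without.

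Ets1, another ILC precursor factor, lay on the same side for Irf8 in all 4 pools, as did Rora, Tcf7 and Zbtb16. Ets1 was detected in 14 of 25 (56%) and 16 of 30 (53.3%) ILCP cells with Irf8, against 34 of 37 (91.9%) and 52 of 60 (86.7%) without. In aLP it was detected in 8 of 40 (20%) and 18 of 73 (24.7%) cells with Irf8, against 8 of 14 (57.1%) and 10 of 19 (52.6%) without. Tcf7 was at 84% and 93.3% of ILCP cells with Irf8, against 91.9% and 98.3% without. In aLP Tcf7 was at 22.5% and 12.3% with Irf8, against 57.1% and 36.8% without. Gata3, which T lymphocytes and group 2 ILCs require, was at 20% and 13.3% of ILCP cells with Irf8, against 48.6% and 38.3% without. Bcl11b, which T cells and group 2 ILCs use and which is a relative of Bcl11a, was at 24% and 20%, against 43.2% and 38.3%. Bcl11b was in 0 of 54 and 0 of 92 aLP cells (which allows up to 5.56% and 3.3%), and 1 of the 5 ILCP cells with Bcl11a also had it.

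The number of assays detected was close in both classes of ILCP cells: the median number of other assays was 40 and 39 in ILCP cells with Irf8 and 41 in those without, in both sorts. In aLP it was 32.5 and 26 with Irf8 and 36 and 25 without. As a measure of likeness over cells, the phi coefficient (the correlation of 2 detection calls) was averaged over those of the 4 pools in which both genes could vary. It was -0.415 for Irf8 with Rora, the lowest of 76 assays, and -0.347 with Ets1. Over 9 ILC precursor factors the median was -0.191 and 8 lay below 0, all but Nfil3, against a median of -0.0258 and 57.9% below 0 over all 76 assays. For Rag2 the lowest assay was also Rora, at -0.256 and below 0 in each of 3 pools, while 5 of the 9 factors lay below 0, with a median of -0.0082, against 40.8% of all 76 assays. For Batf 8 of 9 lay below 0, with a median of -0.0134, against 46.1% of 76 assays. Only 4 factors could be read for the other genes, of which 4 lay below 0 for Pira11 (median -0.0768, against 44.7% of 47 assays) and 3 for Bcl11a (median -0.0239, against 31.9% of 47). Cells of a pool share their sort, and the list of ILC precursor factors was chosen with earlier results known, so these coefficients are descriptions. Rora and Ets1 were singled out after their values were seen.

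**Figure D5:**
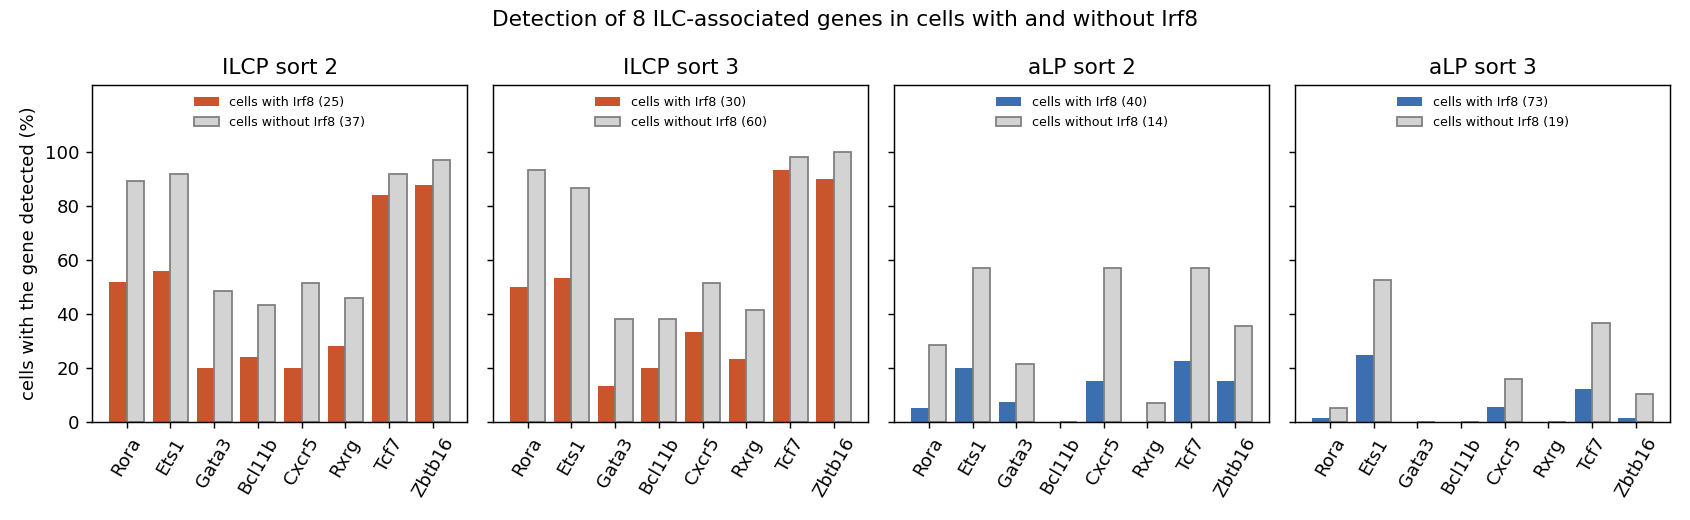
Share of cells, in percent, in which each of 8 ILC-associated genes was detected, for cells with Irf8 (coloured) and without (grey), in each ILCP and aLP pool, with the number of cells in the legend. In both ILCP pools Rora stands at 52% and 50% with Irf8 and at 89.2% and 93.3% without.

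The assays whose detection was most like that of each gene had low coefficients throughout. For Irf8 they were Tbx21 (0.212 over 3 pools), the T-bet gene of type 1 lymphocytes, the receptor gene Notch1 (0.202 over 4) and Irf1, another interferon regulatory factor gene (0.200 over 4). Notch1 ranged from -0.0828 to 0.529 between pools. Rag2 was nearest to Sox4 (0.323), an HMG-box factor of lymphoid progenitors, with a positive coefficient in all 4 pools. Bcl11a was nearest to Irf1 (0.246), Tnfrsf1a (0.212) and Myc (0.209), Batf to Lta (0.254), Ccr8 (0.171) and Tnfsf14 (0.166), and Pira11 to Rbpj (0.185), Irf1 (0.175) and Bcl11a (0.138), each over 2 pools or, for Lta, 3.

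The other genes of these lineages come from lists chosen by role and with earlier results of these data known. Of 5 B lineage genes tested, 1 was called lower (Irf8), 0 higher, 2 had a lower share in ILCP in both sorts (Irf8 and Bcl11a) and 2 a higher one. Over all 91 assays 1.10% were called lower, and 15 had a lower share in both sorts. The 2 higher were Foxo1, a factor of early B cells and of lymphocyte homing, and Tcf3, which encodes the E proteins E12 and E47. Foxo1 was detected in 39 of 62 and 54 of 90 cells of ILCP (62.9% and 60%), and in 23 of 54 and 51 of 92 of aLP (42.6% and 55.4%; limma, adjusted p = 0.191). Tcf3 was detected in 43 of 62 and 66 of 90 cells of ILCP (69.4% and 73.3%), and in 34 of 54 and 53 of 92 of aLP (63% and 57.6%; adjusted p = 0.374). Of 4 early lymphoid progenitor genes tested 0 were called: beside Rag2, Notch1 was detected in 28 of 62 and 36 of 90 ILCP cells against 34 of 54 and 41 of 92 aLP cells, while the difference in share of Il7r had opposite signs in the 2 sorts. Of 10 ILC precursor factors 5 were called higher and 0 lower. These 5 were all the assays called higher among the 91 (5.49%). Zbtb16 was 1 of them, and its protein set the ILCP gate, so the sort fixed its direction. As the list of ILC precursor factors was also chosen with earlier results known, its counts are a description only.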

How the data were processed

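Single cells were preamplified for 22 cycles and read on a Biomark HD, a microfluidic RT-PCR instrument, per the labels' protocols. The authors deposited raw Ct values without normalization, per the file headers, with missing entries where there is no Ct (rule not given in the sources used). The members and the gene lists were chosen with earlier results of these data known. Cells needed at least 1 of 4 housekeeping assays and 5 assays with a Ct below 24, which left out 1 aLP cell of sort 2. Of 100 assays, the 91 that reached 5% of cells in 1 of the 4 ILCP and aLP pools were tested with limma (version 3.58.1, R 4.3.3; lmFit and eBayes, group as the only term, Benjamini-Hochberg, threshold 0.05) on the 4 pool means. The fit was tested on simulated data with changes larger than those of the 5 genes. That test does not show how often differences of their size are called. Same-numbered pools deviated from their groups with a correlation of -0.047 over 91 assays. No 2 cells had identical profiles. Shares have exact Clopper-Pearson intervals (scipy 1.17.1), and a share of 0 the limit of 3 cells, both for counting error only. Classes of other assays were 0 to 24, 25 to 34 and 35 or more. Phi coefficients were taken in pools with at least 5 cells of each call for both genes, over at least 2 pools, and the 3 highest assays per gene were named. Some assays that this rule takes are not reported here. Sequences are from RefSeq tables of GRCm38.p6, in which 4 of the 5 genes were matched. Alternatives varied the detection limit (22, 26, 28 or none), the pool value, scaling, cell and assay filters, the range of other assays (25 to 44), the block and the pools.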

Additional observations from a re-analysis of the deposited data

How the results depend on the processing

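Of the 18 alternatives run, some could not move the Irf8 difference of -2.88 cycles. Among these were the LTiP pool added and an assay filter of 20% or none. Irf8 kept its negative difference under all 18 alternatives and its call under 14 of them, counting those that could not move the difference. The fit with the LTiP pool could not change the call either, as a single pool of its own group adds no spread (limma, adjusted p = 0.0138 as in the main fit). Detection limits of 22, 26, 28 and none and cells scaled to Actb, Gapdh and Hprt were among the 14. It lost the call in detecting cells only (-0.957 cycles), with the sort number as a replicate block (-2.88 cycles, adjusted p = 0.0611) and without either ILCP pool (leaving out each pool in turn gave -3.10 to -2.66). The count of 6 called assays was 12, 11 and 16 with a limit of 26, 28 or none, 13 on shares, 11 with a 20% assay filter, 1 in detecting cells, 2 with the replicate block, and 0 to 20 without 1 pool. The counts of 0 were without an ILCP pool, where 19 and 23 assays had an unadjusted p under 0.05 in limma, and 20 was without the aLP pool of sort 2. Rag2 turned to 0.164 cycles without the aLP pool of sort 2, and ranged from -1.06 to 0.164 over the pools left out. Bcl11a, Batf and Pira11 kept their sign in every fit that could hold them, and Pira11 was called without the aLP pool of sort 2 (-1.87 cycles, against -0.57 without that of sort 3). The cause was not tested, except that fits without a pool rest on fewer pools. All but 4 of the recomputed shares stayed within the counting interval. The 14 LTiP cells and the few cells with both genes of a pair limit what depth can show.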

Other observations

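Within aLP, Irf8 was detected in 9 of 17 (52.9%) and 9 of 16 (56.2%) cells with Tcf7 in sorts 2 and 3, against 31 of 37 (83.8%) and 64 of 76 (84.2%) without Tcf7. Tcf7-positive aLP cells thus lay between the ILCP pools (40.3% and 33.3%) and the remaining aLP cells in both sorts, as a description of cells that was not tested. Cxcr5, whose protein the aLP gate excludes, was detected in 6 of 40 (15%) and 4 of 73 (5.48%) aLP cells with Irf8, against 8 of 14 (57.1%) and 3 of 19 (15.8%) without. In LTiP, 6 of 8 cells with Irf8 had Tcf7, as did 6 of 6 without, and Zbtb16 was detected in 3 of 8 and 4 of 6.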
